A study of Mus musculus with 21 samples.

Results

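The genes described here are 47 interferon-stimulated genes, the transcripts that cells make in response to type I interferon, chosen by name from a list of that response and found among the 52636 genes of the deposited count table. All 47 matched a mouse gene ID, all had at least 10 counts over the 21 libraries, and all 47 passed the filter on low counts, so no member was dropped. The series profiled mouse lung fibroblasts that carry the surface proteins Ly6C and Sca-1, treated in culture and read as bulk RNA-seq from total RNA with a stranded kit. Each of 7 groups held 3 libraries. The groups without TGFb1 received DMSO, a solvent, or CHIR, a compound given by that abbreviation alone. The groups with TGFb1, a growth factor known for inducing matrix genes, received TGFb1 alone or TGFb1 with DMSO, CHIR, IL1b or TNF, the last being inflammatory cytokines. Strain, age, doses, times, the solvent of CHIR and the origin of the 3 libraries of a group (1 or several cultures or animals) were not stated in the labels, so p-values measure only the spread between these libraries, which may be technical. Nor was it stated which groups were run together, so treatment and run cannot be told apart in any comparison.

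Type I interferons bind a receptor built from Ifnar1 and Ifnar2, whose kinases activate STAT proteins. A complex of these with IRF9 binds the interferon-stimulated response element, or ISRE, in the promoters of many genes, a large share of which block viral replication. Fibroblasts respond to interferon and can also make interferon beta, and several of these genes can be induced by interferon gamma or by IRF factors without it.

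Promoter stretches are shown for 7 members, 6 that hold the ISRE core and Oasl1, which was among the members with the largest TGFb1 response and holds none, so that the motif can be seen beside the values that follow. Each is the 150 bases before the annotated start site, 5′ to 3′ on the strand of the gene, from the RefSeq promoter table (GRCm38.p6). Capitals mark matches of the ISRE core, read as GAAA, any 2 bases and GAAA, on either strand. The stretches are Isg15 at chr4:156200819-156200968 on the minus strand, Ifit1 at chr19:34640739-34640888 on the plus strand, Rsad2 at chr12:26456453-26456602 on the minus strand, Oas1a at chr5:120907526-120907675 on the minus strand, Oas3 at chr5:120777660-120777809 on the minus strand, Gbp7 at chr3:142530186-142530335 on the plus strand and Oasl1 at chr5:114923090-114923239 on the plus strand.
Isg15: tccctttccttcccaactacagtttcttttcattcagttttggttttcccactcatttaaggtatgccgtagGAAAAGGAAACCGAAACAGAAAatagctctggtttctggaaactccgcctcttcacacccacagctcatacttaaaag
Ifit1: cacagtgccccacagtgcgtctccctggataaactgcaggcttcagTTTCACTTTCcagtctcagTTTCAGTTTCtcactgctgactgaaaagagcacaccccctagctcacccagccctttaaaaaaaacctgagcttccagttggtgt
Rsad2: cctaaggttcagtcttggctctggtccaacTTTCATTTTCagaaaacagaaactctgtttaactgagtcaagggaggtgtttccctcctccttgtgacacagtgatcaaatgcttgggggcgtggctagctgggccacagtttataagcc
Oas1a: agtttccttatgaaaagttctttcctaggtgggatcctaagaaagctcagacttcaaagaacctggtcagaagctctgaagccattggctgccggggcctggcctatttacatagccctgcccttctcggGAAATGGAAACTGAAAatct
Oas3: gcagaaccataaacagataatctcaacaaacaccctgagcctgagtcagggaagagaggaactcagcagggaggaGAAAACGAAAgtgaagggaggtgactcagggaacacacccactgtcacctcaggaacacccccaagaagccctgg
Gbp7: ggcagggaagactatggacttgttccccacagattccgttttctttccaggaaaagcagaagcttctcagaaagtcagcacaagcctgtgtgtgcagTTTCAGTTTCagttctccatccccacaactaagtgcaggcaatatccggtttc
Oasl1: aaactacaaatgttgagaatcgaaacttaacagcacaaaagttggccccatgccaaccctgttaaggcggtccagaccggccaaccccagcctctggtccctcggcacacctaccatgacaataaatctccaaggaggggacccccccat
The Isg15 stretch held 3 overlapping matches, those of Ifit1 and Oas1a 2 each, and those of Rsad2, Oas3 and Gbp7 1 each.

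Of the 47 members, 37 were in the promoter table. Within windows of 300 bases, from 250 before to 50 after the start, the ISRE core was present for 17 of the 37 (45.9%), against 3.99% of the 27025 genes with a promoter. The 17 were Stat2, Isg15, Trim30a, Ifit1, Ifit3, Oas1a, Oas3, Ifih1, Eif2ak2, Rsad2, Bst2, Gbp2, Gbp3, Gbp5, Gbp7, Igtp and Irgm1. The GAS core TTCNNNGAA, which reads the same on both strands and is the site of the interferon gamma response, was present for 9 (24.3%) against 9.55%. The NF-kB motif, the site of the factor that IL1b and TNF activate, was present on either strand for 3 (8.11%), Gbp5, Oasl1 and Bst2, against 5.14%. Matches of different motifs overlapped in 1 member, Bst2. These are matches of letters, and binding was not measured.

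The libraries held 19796379 to 29276382 counts. Levels are CPM, the counts of a gene relative to the TMM-scaled library total. The labelled cell type was checked against its markers. The 9 fibroblast markers summed to 22700 to 82770 CPM over the libraries, and the 13 immune markers to 1.56 to 6.87 CPM, with Ptprc, Adgre1, Siglech, Cd3e and Ncr1 at 0 counts in every group. Most of the fibroblast sum was Col1a1, Col1a2 and Col3a1. In the same list Lum averaged 9.242 CPM in DMSO and 0.02426 in TGFb1 + TNF, and Pdgfra 1485 and 76.78. Group means of mural Pdgfrb ran from 235.8 to 1227 CPM and those of mesothelial Wt1 from 9.141 to 27.68. The genes of the sorting markers were not constant. Ly6a, which encodes Sca-1, averaged 142 CPM in DMSO, 60.6 in CHIR, 86.6 in TGFb1 and 66.6 in TGFb1 + DMSO. Its mean was 26.8 in TGFb1 + TNF, 7.83 in TGFb1 + CHIR and 75.9 in TGFb1 + IL1b. Ly6c1 averaged 49.8, 11.65, 24.0, 16.3, 6.03, 0.703 and 19.1 CPM in the same groups and order. In bulk samples fewer expressing cells and less RNA per cell cannot be told apart, and this holds for every level below.

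The interferon-stimulated genes were lowest with TGFb1 and CHIR together and highest with TGFb1 and an inflammatory cytokine. The mean log2 CPM over the 47 members (prior count 2, mean ± SD, n = 3) was 1.28 ± 0.275 in TGFb1 + CHIR, 2.32 ± 0.141 in CHIR, 2.70 ± 0.392 in DMSO, 3.40 ± 0.265 in TGFb1, 3.87 ± 0.174 in TGFb1 + DMSO, 4.27 ± 0.131 in TGFb1 + IL1b and 4.48 ± 0.335 in TGFb1 + TNF. The 3 TGFb1 + CHIR libraries, at 1.41, 1.46 and 0.96, lay below every other library, of which the lowest was at 2.16. Neighbours in this order overlapped for CHIR and DMSO and for IL1b and TNF, and the other neighbours did not overlap. Of the single members, 38 of 47 had their lowest group mean in TGFb1 + CHIR, where 13.1% of all tested genes had theirs, and 33 had their highest in TGFb1 + TNF, where 24.9% of all tested genes had theirs. A further 10 were highest in TGFb1 + IL1b, against 8.6% of tested genes, and 7 were lowest in CHIR, against 24.0%.

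**Figure D1:**
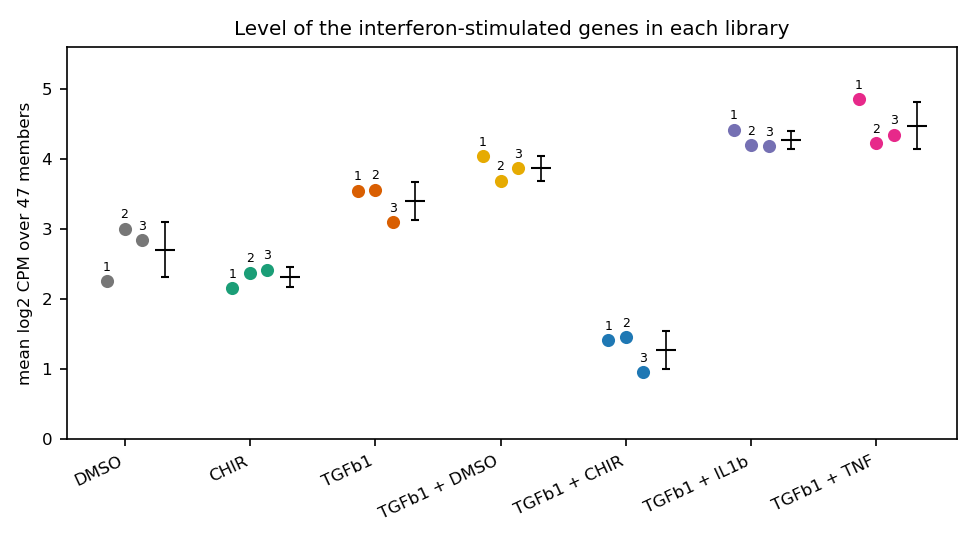
Mean log2 CPM over the 47 members (vertical axis, prior count 2) for each of the 21 libraries by treatment group (horizontal axis); points carry the replicate number, lines and bars are the mean and SD of 3 libraries. The TGFb1 + CHIR libraries sit at 0.96 to 1.46 and the TGFb1 + TNF libraries at 4.23 to 4.86.

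Members also moved together between libraries of 1 group. TGFb1 + TNF replicate 1 held the highest level of its group for 45 of 47 members, against 34.5% of all tested genes. DMSO replicate 1 held the lowest for 41 (36.2% of tested genes), TGFb1 replicate 3 the lowest for 40 (32.9%), TGFb1 + IL1b replicate 1 the highest for 39 (36.7%) and TGFb1 + DMSO replicate 1 the highest for 34 (35.3%). The 47 members are not 47 independent readings of a treatment.

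**Figure D2:**
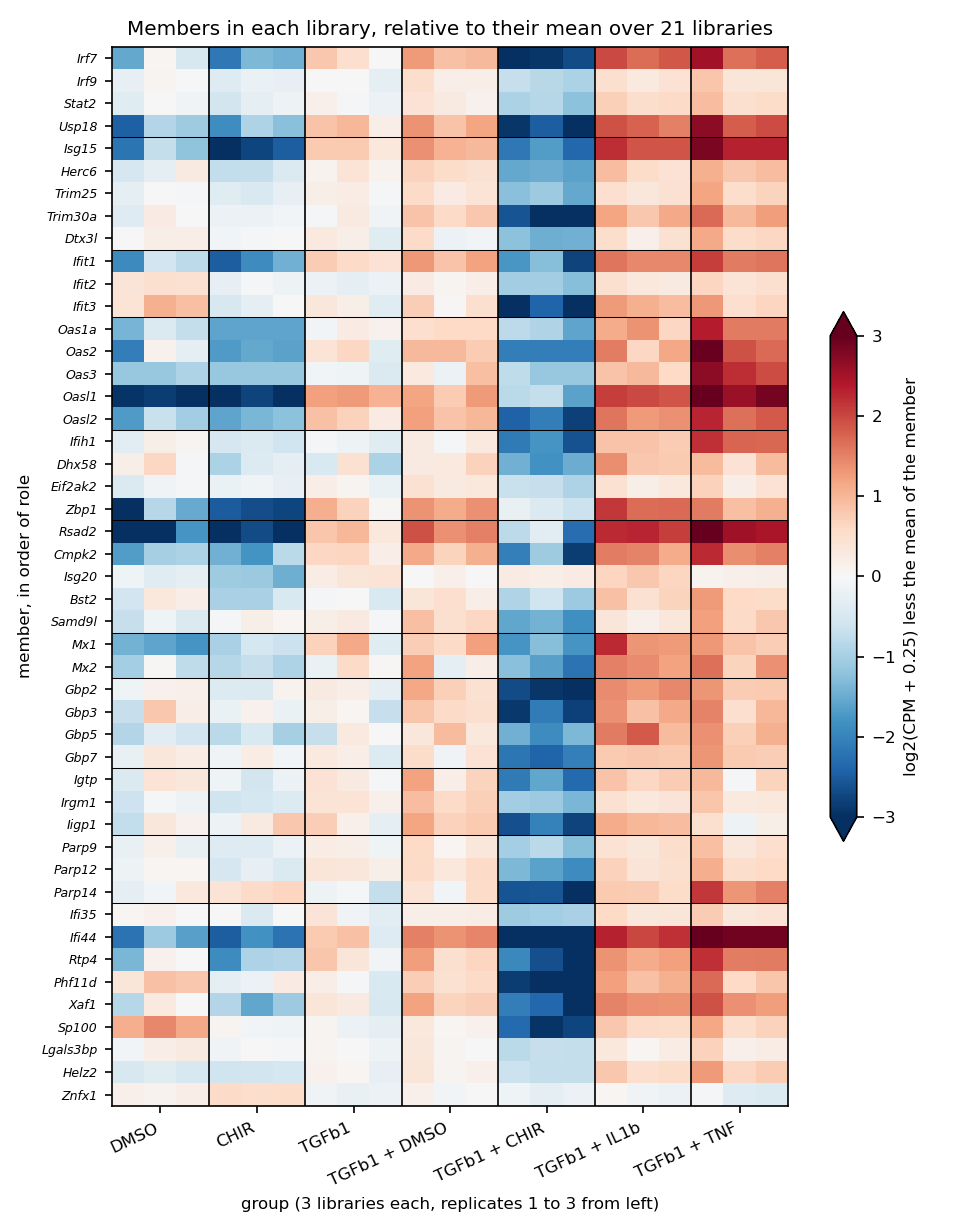
Level of each of the 47 members (vertical, grouped by role) in each library (horizontal, replicates 1 to 3 from the left within a group), as log2(CPM + 0.25) less the mean of that member over the 21 libraries, with colours limited to 3 on either side of 0. The TGFb1 + CHIR columns are the lowest for most members, and within TGFb1 + TNF the replicate 1 column is the highest.

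Per kilobase of exon, the scale on which different genes can be compared, Lgals3bp, a secreted glycoprotein, stood at 52.8 CPM per kb in TGFb1 + DMSO, and Isg15, a ubiquitin-like protein that is attached to other proteins, was at 32.3. On the same scale and in the same group Ifit1 was at 28.7, Irgm1 at 14.8, Irf7 at 2.61 and Oas3 at 0.0676. Reads shared with near-identical copies (among the Oas1, Ifit3, Gbp, Trim30, Phf11 and Irgm families) and reads of the 18 members that overlap another annotated gene, such as Dtx3l with Parp9 and Igtp with Irgm2, may be divided by the counting, so their levels are uncertain.

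Adding TGFb1 in the presence of the solvent raised most members. Against DMSO, TGFb1 + DMSO was higher for 32 of 47 members (30.7% of all 16197 genes tested) and lower for 2 (31.3%), at an adjusted p under 0.05 in edgeR's quasi-likelihood test, which is the meaning of called, rose and fell from here on. The median log2 fold change was 0.76 over the members and -0.02 over all genes. The libraries of both groups did not overlap for 31 members higher (31.9% of all genes) and 2 lower (32.8%). With TGFb1 alone in place of TGFb1 + DMSO, 18 members were higher (31.0%) and 5 lower (32.5%), with a median of 0.31. More members were called higher where both sides held the solvent. Markers moved in the same comparison: from DMSO to TGFb1 + DMSO the mean of the mural marker Cspg4 went from 7.48 to 99.5 CPM, mesothelial Wt1 from 13.2 to 23.3, endothelial Tek from 6.71 to 0.774 and fibroblast Dcn from 2013 to 205.8 CPM. The sums were 992.7 to 1064 and 1086 to 1194 CPM for the 6 mural markers, 12.2 to 16.1 and 20.3 to 25.9 for the 4 mesothelial markers, 8.46 to 10.55 and 5.15 to 7.41 for the 6 endothelial markers and 36160 to 36290 and 58200 to 61030 for the 9 fibroblast markers. Other markers of the same lists went the other way from DMSO to TGFb1 + DMSO. Mural Notch3 averaged 59.7 and 40.0 CPM, Rgs5 1.09 and 0.454 and Myh11 0.846 and 0.290. Endothelial Kdr averaged 1.60 and 4.19 CPM and Pecam1 0.0606 and 0.658, mesothelial Upk3b 0.406 and 0.0114, and fibroblast Col1a1 12560 and 25330. The part of these markers in the rise was not tested.

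The signalling genes all rose with TGFb1 + DMSO against DMSO, 4 of 4, where 30.7% of all genes rose. Irf7, the factor that amplifies interferon production, read 1.43, 4.83 and 3.24 CPM in DMSO and 11.5, 8.79 and 9.29 CPM in TGFb1 + DMSO, with no overlap (log2 fold change 1.63 ± 0.35 SE, adjusted p = 0.000695). Usp18, which removes Isg15 from proteins and dampens the receptor, read 0.714, 2.62 and 2.27 against 13.1, 9.24 and 11.8 CPM, again without overlap (2.61 ± 0.38, adjusted p = 1.79e-05). Stat2 and Irf9, partners in the ISRE-binding factor, were expressed at 30.2, 38.3 and 36.4 CPM and at 27.9, 35.4 and 32.8 CPM in DMSO. In TGFb1 + DMSO they stood at 52.2, 47.1 and 42.2 CPM and at 47.6, 38.1 and 37.9 CPM, higher by 0.43 ± 0.14 and 0.36 ± 0.13 on the log2 scale. Irf7 and Usp18 thus had larger estimates than Stat2 and Irf9.

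Mx1, Oas3, Rsad2, Oasl1 and Ifi44 had the highest estimates among the called members in this comparison. Rsad2 (viperin, chromosome 12 from 26442746 to 26456452), an enzyme that makes a chain-terminating nucleotide, read 0.306, 0.504 and 1.78 CPM in DMSO and 26.1, 17.9 and 19.8 CPM in TGFb1 + DMSO (log2 fold change 4.69 ± 0.48, adjusted p = 3.48e-07). Oasl1, an OAS-like protein without synthetase activity, read 0.646, 0.705 and 0.365 against 15.6, 11.6 and 16.4 CPM (4.62 ± 0.27, adjusted p = 1e-12). In both genes every TGFb1 + DMSO library lay far above every DMSO library. All 5 members of the OAS family, whose enzymes make the oligoadenylates that activate RNase L, rose, against 30.7% of all genes. Ifi44, of unsettled function, rose by 3.30 ± 0.38. Mx1, a dynamin-like GTPase that blocks viral ribonucleoproteins, had 3 counts over the DMSO libraries and 108 over those of TGFb1 + DMSO, a ratio of 36.6 (95% counting interval 12.2 to 180). Oas3 had 1 against 39 counts, a ratio of 39.7 (6.71 to 1606). Counting intervals cover counting error only.

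Isg15 read 2.21, 6.55 and 4.62 CPM in DMSO and 28.6, 22.8 and 21.8 CPM in TGFb1 + DMSO (2.45 ± 0.28), and Trim25, a ubiquitin ligase of the RNA-sensing pathway, 40.2, 48.9 and 47.5 against 73.9, 58.5 and 65.6 CPM (0.54 ± 0.16). In the IFIT family, whose proteins bind foreign RNA, 1 member rose and 1 fell. Ifit1 read 9.05, 23.1 and 20.2 against 86.5, 62.7 and 79.9 CPM (2.13 ± 0.31), and Ifit2 72.1, 77.6 and 75.7 against 65.6, 58.5 and 64.1 CPM (-0.26 ± 0.07), so these neighbours on chromosome 19 moved in opposite directions. Ifit3 was not called (-0.39 ± 0.25, adjusted p = 0.201). The other member that fell was Sp100, a protein of nuclear bodies, from 36.5, 47.1 and 38.2 CPM to 21.4, 17.9 and 18.8 CPM (-1.07 ± 0.14). Members rose in 2 of 4 sensors, 4 of 5 antiviral effectors, 2 of 2 Mx genes, 2 of 4 guanylate-binding proteins, 2 of 3 immunity-related GTPases and 2 of 3 PARPs, which are ADP-ribosyltransferases. Of all genes tested, 30.7% rose and 31.3% fell in this comparison, and counts in roles of so few genes are descriptions.

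With CHIR and no TGFb1 most estimates lay below 0, few members rose and the share that fell was near that of all genes. Against DMSO, 2 of 47 were higher (22.1% of all genes tested) and 14 lower (22.7%), with a median log2 fold change of -0.33, or -0.32 with the 2 members at 0 counts in CHIR taken at their bound, against -0.01 over all genes. Isg15 read 0.969, 1.41 and 1.75 CPM in CHIR, all below the 3 DMSO libraries (-1.72 ± 0.44, adjusted p = 0.00492). Sp100 read 18.2, 16.2 and 15.5 CPM (-1.29 ± 0.15), and the apoptosis-linked Xaf1 2.35, 1.37 and 2.0 CPM against 2.42, 5.61 and 4.58 in DMSO (-1.14 ± 0.33). Isg20, an exonuclease that degrades RNA, fell to 4.99, 4.83 and 3.75 CPM from 9.73, 8.36 and 8.84 (-0.98 ± 0.12). Irf7 read 0.857, 1.67 and 1.56 CPM, overlapping DMSO (-1.23 ± 0.46, adjusted p = 0.0417). Oas1a had 0 counts in CHIR and 15 in DMSO, at least 4.39-fold lower. Over all 47 members the estimate was below 0 in 39 and above 0 in 8. At an unadjusted p under 0.05 in the same test, 18 were lower and 4 higher. How many of all genes passed that unadjusted p was not counted, so these counts are descriptions. The groups did not overlap for 4 members higher (26.1% of all genes) and 12 lower (27.0%). The 2 higher members were Znfx1, an RNA helicase-like sensor (70.5, 67.9 and 72.2 CPM in DMSO, 93.4, 90.4 and 92.4 in CHIR, 0.39 ± 0.07), and Mx1, with 20 against 3 counts, a ratio of 7.59 (2.25 to 39.9). Mx1 thus rose in CHIR while Isg15 and Irf7 fell. None of the 4 guanylate-binding proteins and none of the 3 immunity-related GTPases was called in edgeR, also at an unadjusted p under 0.05. The count of 14 rested on single libraries: leaving out each in turn gave 7 to 19. It was 8 without DMSO replicate 2, 8 without DMSO replicate 3, 7 without CHIR replicate 1 and 9 without CHIR replicate 2. Of all genes, 39.7%, 40.7%, 39.4% and 38.7% were called in these fits in either direction, against 44.8% in the main fit. With limma voom it was 9, with 46.0% of all genes called. Irf7 was not called in 5 of the 6 fits that left out a library, nor Xaf1 without CHIR replicate 2. With limma voom neither Irf7 nor Isg15 was called. Beside these values, the mitochondrial share of counts was 0.962% to 1.17% in CHIR and 0.561% to 0.591% in DMSO. The 6 mural markers summed to 1264 to 1299 against 992.7 to 1064 CPM, most of it Pdgfrb (mean 1227 against 954.2). Myh11 (6.88 against 0.846) and Rgs5 (4.78 against 1.09) had higher means in CHIR. Notch3 (37.3 against 59.7), Des (0.615 against 1.45) and Cspg4 (7.24 against 7.48) had lower ones. The immune markers summed to 1.56 to 2.83 against 3.16 to 4.32 CPM. Their part in the changes was not tested.

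The abundant members of most roles overlapped between CHIR and DMSO. In CHIR, Stat2 read 26.5, 32.1 and 34.7 CPM and Irf9 25.4, 29 and 28.1 CPM. Usp18 read 1.19, 2.51 and 1.95 CPM and Trim25 38.4, 35.8 and 41.1 CPM. These 4 overlapped DMSO and were not called. Ifit1 read 6.04, 9.2 and 12.6 CPM in CHIR, also overlapping and not called, whereas its neighbour Ifit2 fell without overlap, to 46.6, 53.6 and 49.9 CPM (-0.59 ± 0.07). Oasl1 read 0.521, 0.76 and 0.584 CPM and Rsad2 0.186, 0.837 and 0.633 CPM. Oasl2 read 12, 13.8 and 15.2 CPM in CHIR and 11, 22.8 and 17.4 CPM in DMSO, and all 3 of these antiviral genes overlapped. Among the GTPases, Gbp2 read 7, 6.96 and 10.2 CPM in CHIR and 8.64, 10.4 and 10.5 CPM in DMSO. Gbp3 read 8.05, 10.3 and 8.04 and 5.68, 16.6 and 10.7 CPM. Irgm1 read 33.6, 35.3 and 38.6 and 33.2, 49.8 and 46.1 CPM, and Iigp1 5.77, 7.76 and 11.4 and 3.74, 8.12 and 6.97 CPM. Each of these GTPases overlapped between the groups.

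CHIR together with TGFb1 lowered nearly the whole set. Against TGFb1 + DMSO, TGFb1 + CHIR was lower for 46 of 47 members (22.5% of all genes tested) and higher for 0 (20.8%), with a median log2 fold change of -2.81 against 0.00 over all genes. No member was higher at an unadjusted p under 0.05, nor by DESeq2 or limma voom. The libraries of both groups did not overlap for 46 members lower (25.9% of all genes) and 1 higher (24.9%). The member that was not called was Isg20, at 10.9, 11.9 and 10.9 CPM in TGFb1 + DMSO and 12.8, 12.4 and 12.8 CPM in TGFb1 + CHIR (0.17 ± 0.11, adjusted p = 0.215). With TGFb1 alone as the control, 45 were lower (23.4%) and 0 higher (22.2%).

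Irf7 fell to 0.185, 0.395 and 0.509 CPM in TGFb1 + CHIR, from 11.5, 8.79 and 9.29 in TGFb1 + DMSO, a log2 fold change of -4.82 ± 0.54 (adjusted p = 1.78e-06). Usp18 fell to 0.445, 0.692 and 0.305 CPM (-4.55 ± 0.51). Both were below their levels in cells that had received DMSO without TGFb1. Stat2 read 19.9, 21.3 and 16.3 CPM (-1.29 ± 0.15) and Irf9 20.4, 18.6 and 17 CPM (-1.13 ± 0.13), both smaller estimates than that of Irf7.

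Ifi44 fell to 0.185, 0.148 and 0 CPM (-6.30 ± 0.59), 1.14% of its TGFb1 + DMSO mean. Oas2 had 0 counts in TGFb1 + CHIR and 142 in TGFb1 + DMSO, at least 38.4-fold lower, and Mx1 had 2 against 108 counts, a ratio of 43.8 (11.8 to 366). These are the members nearest to complete loss. Oasl2 read 6.52, 8.40 and 4.99 against 85.3, 66.3 and 72.3 CPM (-3.49 ± 0.29). Ifit1, at 10.2, 14.1 and 4.84 CPM, fell by 2.96 ± 0.34 on the log2 scale and Isg15, at 2.30, 3.26 and 1.94 CPM, by 3.29 ± 0.33. Oasl1 fell by less (-2.14 ± 0.21), to 3.71, 3.95 and 2.04 CPM, as did Rsad2 (-2.62 ± 0.39), to 3.78, 5.24 and 1.17 CPM.

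The GTPases that act on the vacuoles of intracellular pathogens fell as groups, where 22.5% of all genes fell. All 4 guanylate-binding proteins were lower: Gbp2 read 1.26, 1.04 and 0.662 CPM in TGFb1 + CHIR against 21.4, 15.6 and 13.1 CPM (-4.04 ± 0.29), and Gbp3 1.04, 1.98 and 1.12 against 16.8, 14.1 and 13.1 CPM (-3.43 ± 0.47). All 3 immunity-related GTPases were lower too. Irgm1 read 24.7, 24.1 and 19.8 against 97.7, 75.9 and 84.5 CPM (-1.91 ± 0.17), and Iigp1 0.815, 1.38 and 0.713 against 14.8, 10.4 and 11.2 CPM (-3.65 ± 0.42). Members of the other roles fell by differing amounts. Eif2ak2, the kinase that halts translation on double-stranded RNA, read 33.3, 32.9 and 27.9 against 73.7, 63.7 and 66.8 CPM (-1.11 ± 0.14). Parp9 and Parp12 fell by 1.38 ± 0.18 and 2.11 ± 0.15 on the log2 scale. The smallest called falls were those of Znfx1 (-0.23 ± 0.07), Helz2 (-0.89 ± 0.155) and Lgals3bp (-0.89 ± 0.14).

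**Figure D3:**
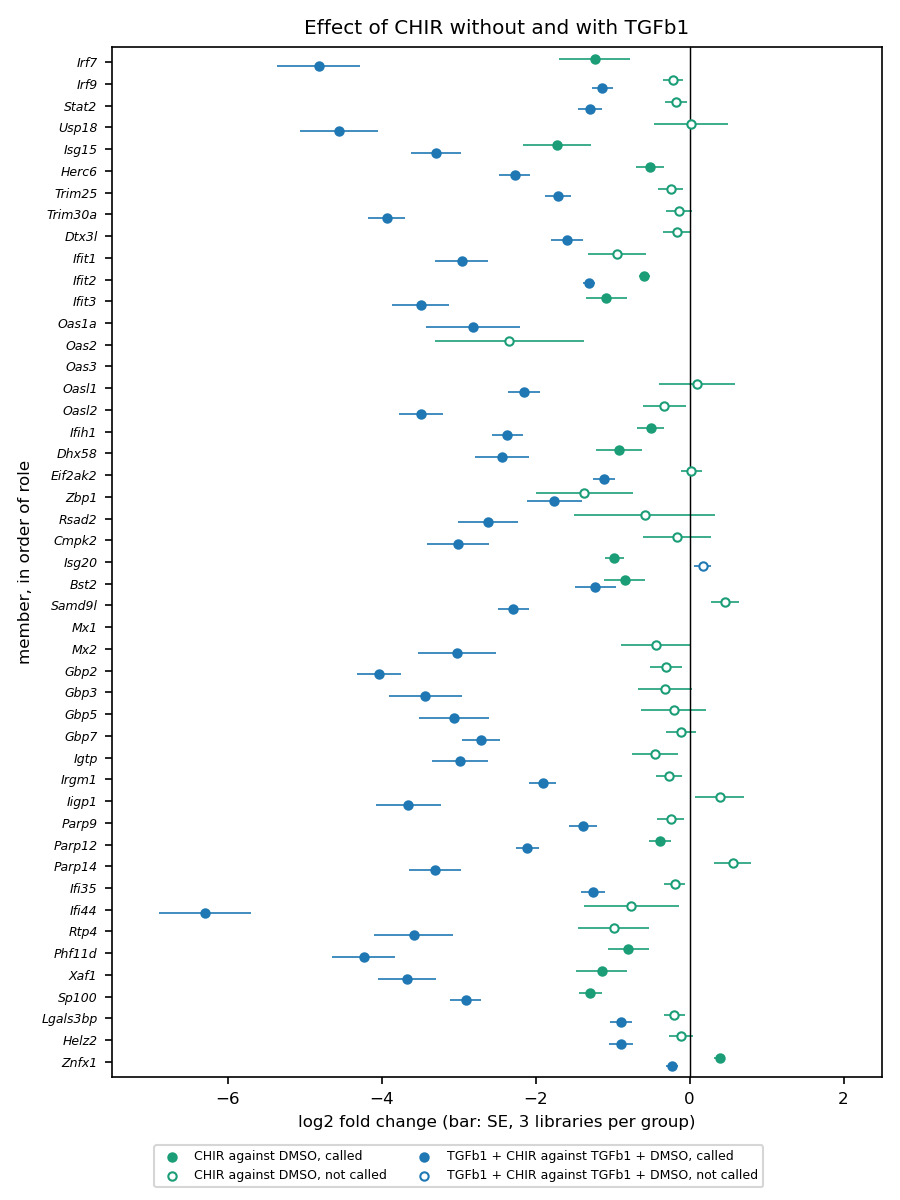
Log2 fold change (horizontal axis) of each member (vertical axis, in order of role) for CHIR against DMSO and for TGFb1 + CHIR against TGFb1 + DMSO; filled points were called, open points were not, bars are the SE. Oas3 and Mx1 are left out of both comparisons, Oas2 of the comparison with TGFb1 and Oas1a of that without, because a group held 0 to 3 counts. With TGFb1, Isg20 alone among the plotted members lies above 0 and is open.

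The difference between these CHIR effects was tested as an interaction, in which the effect without TGFb1 is subtracted from the one with it. It was negative and called for 39 of 47 members (20.3% of all genes tested) and positive and called for 1 (21%), with a median of -2.02 against 0.03 over all genes. Usp18 (-4.57 ± 0.75), Ifi44 (-5.54 ± 1.08), Iigp1 (-4.04 ± 0.54) and Parp14, an ADP-ribosyltransferase (-3.87 ± 0.43), had the largest called negative values apart from Mx1, whose estimate rests on groups with 2 and 3 counts. The positive value was that of Isg20 (1.15 ± 0.17, adjusted p = 9.75e-08), which fell with CHIR alone and was not called with CHIR and TGFb1. Isg15, which CHIR lowered in both settings, was not called (-1.57 ± 0.62, adjusted p = 0.0551), nor were Rsad2 (-2.04 ± 1.08) and Bst2 (-0.39 ± 0.38), the latter a protein that tethers virions to the cell surface. In the other direction, TGFb1 + CHIR against CHIR, a comparison added after the data had been seen, 33 members were lower (32.3%) and 5 higher (33.8%), with a median of -1.21, or -1.08 with the members at 0 counts in a group at their bound. Rsad2 (2.65 ± 0.70), Zbp1, a sensor of Z-form nucleic acid (2.63 ± 0.56), Oasl1 (2.38 ± 0.36) and Isg20 (1.48 ± 0.12) rose, and Oas1a had 8 against 0 counts, at least 2.94-fold higher. Phf11d (-3.55 ± 0.44), Parp14 (-3.54 ± 0.34), Iigp1 (-3.09 ± 0.44) and Trim30a (-3.01 ± 0.26) fell, and Mx1 had 2 against 20 counts, a ratio of 9.08 (2.21 to 80.1). With limma voom 3 were higher (65.8% of all genes called in either direction), and Oas1a and Rsad2 were not called. Oas1a was not called without TGFb1 + CHIR replicate 1 either. TGFb1 therefore went with higher levels of most members in the solvent and with lower levels of most members in CHIR.

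Beside the fall in TGFb1 + CHIR, the 6 endothelial markers summed to 22.4 to 24.9 CPM there and 5.15 to 7.41 CPM in TGFb1 + DMSO, most of it Kdr (mean 20.4 CPM), with Cldn5 at 0 in every group and Pecam1 at a mean of 0.109 CPM. The 13 immune markers summed to 3.85 to 5.04 CPM against 3.37 to 4.61 CPM, with 4 of 13 detected in TGFb1 + CHIR and 5 in TGFb1 + DMSO, and the 9 fibroblast markers to 74420 to 82770 against 58200 to 61030 CPM. The collagen genes Col1a1 (mean 34040 CPM in TGFb1 + CHIR), Col3a1 (24260) and Col1a2 (19230) made up most of that sum, while Dcn in the same list averaged 91.8 against 205.8 CPM. The 6 mural markers summed to 902.4 to 921.5 against 1086 to 1194 CPM. Most of that sum was Pdgfrb, at a mean of 846.0 against 992.7, and Cspg4 averaged 18.8 against 99.5. Mural Notch3 went the other way, at 44.9 against 40.0. Ly6a and Ly6c1, given above, were far lower. Their part in the fall of the interferon-stimulated genes was not tested.

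The solvent itself went with somewhat higher levels on the TGFb1 background. TGFb1 + DMSO against TGFb1 called 3 of 47 members higher (2.33% of all genes tested) and 0 lower (3.8%), with estimates above 0 in 45 and a median log2 fold change of 0.41 against 0.00 over all genes. At an unadjusted p under 0.05, 18 were higher and 1 was lower. The share of all genes at that unadjusted p was not counted, so these counts are descriptions. The libraries did not overlap for 24 members higher (10.1% of all genes) and 1 lower (11.2%). The 3 called were Gbp2, at 11.5, 10.8 and 7.73 CPM in TGFb1 (0.73 ± 0.20, adjusted p = 0.0325), the ligase Trim30a, at 8.64, 10.7 and 8.29 CPM against 16.3, 13.4 and 15.7 (0.70 ± 0.16, adjusted p = 0.008), and Ifit2, at 49.2, 45.8 and 48.9 CPM (0.39 ± 0.07, adjusted p = 9.21e-05). The count was 7 with DESeq2 and 19, of 46 members tested, when only these groups entered the fit. It was 8 with no filter on low counts and 1 without TGFb1 replicate 1. Of all genes, 2.28%, 6.09%, 3.5% and 3.87% were called in these fits in either direction, against 6.13% in the main fit. DESeq2 and the fit with no filter took in 52636 and 29735 genes. No member was lower with DESeq2 or limma voom. Gbp2 was not called with limma voom or in 5 of the 6 fits that left out a library, nor Trim30a without TGFb1 replicate 1. The labels do not say whether both TGFb1 groups were run together, and solvent and run cannot be told apart. The same limit holds for every other comparison here.

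IL1b and TNF each raised most members above TGFb1. With IL1b 34 of 47 were higher (17.2% of all genes tested) and 0 lower (17.4%), with a median log2 fold change of 0.82, and the groups did not overlap for 40 members higher (23.2%) and 0 lower (22.3%). With TNF 40 were higher (27.7%) and 0 lower (28.8%), with a median of 0.94, and the groups did not overlap for 37 higher (29.2%) and 1 lower, Isg20 (29.7%). No member was lower in either comparison at an unadjusted p under 0.05, nor by DESeq2 or limma voom. Both comparisons share the 3 TGFb1 libraries. Leaving out each library in turn gave 24 to 34 members higher with IL1b and 35 to 41 with TNF. In those fits 28.3% to 30.3% and 51.5% to 52.6% of all genes were called in either direction, against 34.6% and 56.6% in the main fit. Against TGFb1 + DMSO the counts were 14 higher (19.6%) and 0 lower (19.8%) for IL1b, and 26 higher (27.8%) and 1 lower (29.2%) for TNF, with medians of 0.42 and 0.54. The 1 lower was Znfx1, and 1 member was also lower than in TGFb1 alone when TGFb1 + TNF replicate 1 was left out. The labels of both cytokine groups name no solvent. Beside these rises, the fibroblast markers summed to 62080 to 64360 CPM in TGFb1, 58240 to 59750 with IL1b and 22700 to 23780 with TNF, the endothelial markers to 4.49 to 6.03, 5.04 to 6.63 and 13.96 to 14.26 CPM, with Cldn5 at 0 throughout, the mural markers to 1104 to 1153, 671.8 to 707.5 and 503.6 to 529 CPM, and the immune markers to 4.17 to 4.42, 6.01 to 6.87 and 2.56 to 3.12 CPM. Within these lists Dcn averaged 224.5 CPM in TGFb1 and 532.7 with TNF, against the fall of the summed fibroblast markers, and Cspg4 113 and 272.5 CPM, against the fall of the mural sum. Endothelial Cdh5 averaged 0.2653 CPM in TGFb1 and 4.535 with TNF and Kdr 3.185 and 6.318, while Pecam1 averaged 0.5475 and 0.1601. In the immune list Csf1r averaged 2.943 and 0.8128 CPM, while Cd68 averaged 1.274 and 1.939. Their part in the rises was not tested.

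**Figure D4:**
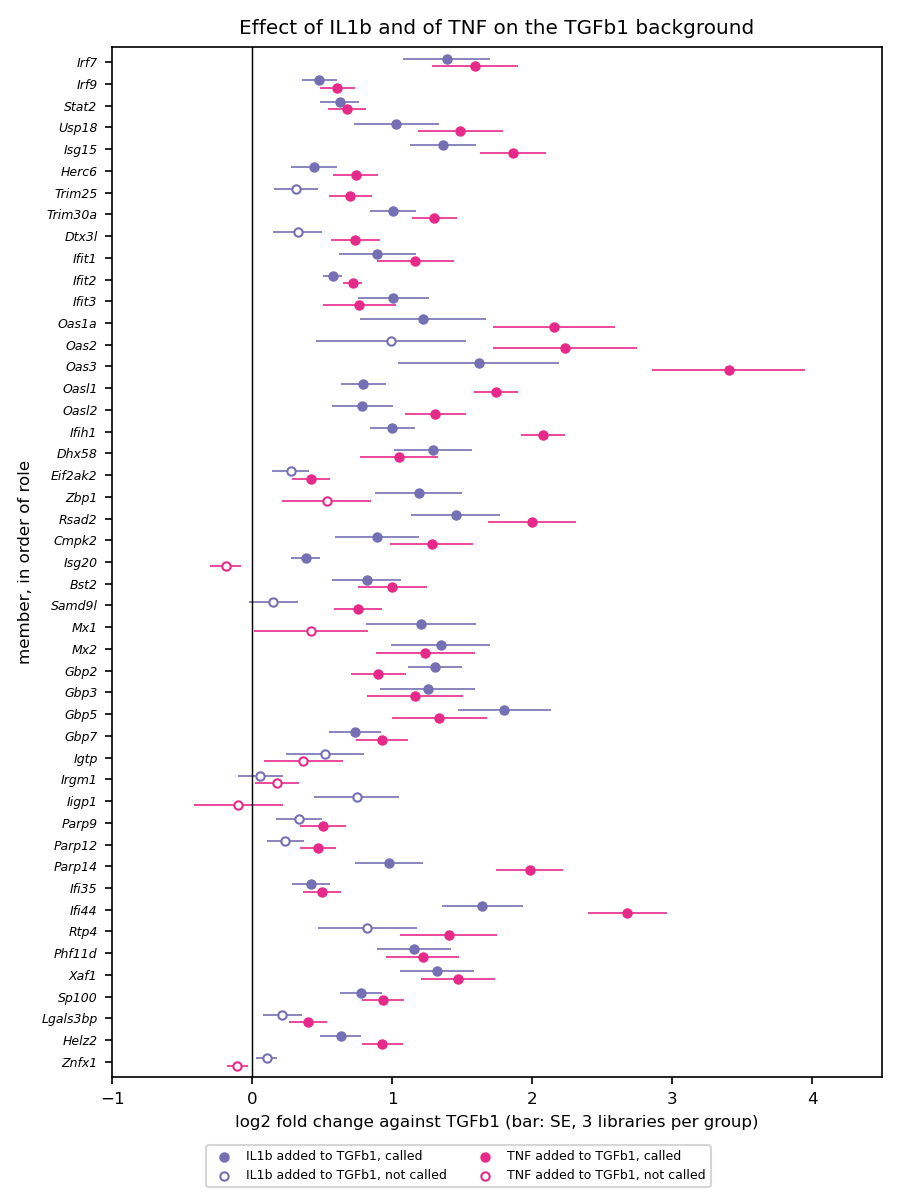
Log2 fold change against TGFb1 (horizontal axis) of each member (vertical axis, in order of role) with IL1b and with TNF added; filled points were called, open points were not, bars are the SE. All 47 estimates with IL1b lie above 0, from 0.06 to 1.80, and those with TNF run from -0.19 to 3.40.

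Among the signalling genes 4 of 4 rose with each cytokine, against 17.2% of all genes with IL1b and 27.7% with TNF. Irf7 read 8.34, 6.64 and 4.69 CPM in TGFb1, 19.0, 15.5 and 17.6 CPM with IL1b (1.39 ± 0.31) and 27.8, 15.2 and 17.1 CPM with TNF (1.59 ± 0.31). Usp18 read 9.26, 10.2 and 5.77 CPM in TGFb1, 19.6, 17.8 and 14.8 CPM with IL1b and 33.4, 18.1 and 20.2 CPM with TNF. Neither cytokine group overlapped TGFb1 for these genes, and the high TNF value was replicate 1 in both. Stat2 stood at 43.0, 37.9 and 34.1 CPM in TGFb1, 63.8, 56.3 and 57.8 with IL1b and 73.9, 54.1 and 56.6 with TNF. Irf9 stood at 33.3, 33.7 and 27.7, then 46.7, 40.9 and 45.0, then 59.2, 43.0 and 42.9 CPM.

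Isg15 read 18.9, 19.0 and 13.6 CPM in TGFb1, 51.4, 40.9 and 41.1 CPM with IL1b (1.36 ± 0.24) and 79.2, 55.0 and 54.9 CPM with TNF (1.87 ± 0.23). Trim25 rose with TNF, to 113, 70.7 and 78.5 CPM from 55.5, 57.8 and 47.1, and was not called with IL1b (70.2, 62.2 and 67.5 CPM, 0.31 ± 0.16). All 3 IFIT genes rose with each cytokine (17.2% of all genes with IL1b, 27.7% with TNF). Ifit1 read 59.1, 52.1 and 47.2 CPM in TGFb1, 106, 94.9 and 94.1 with IL1b and 148, 103 and 106 with TNF, without overlap. Ifit2 read 77.9, 69.1 and 67.2 CPM with IL1b (0.58 ± 0.07) and 86.4, 73.3 and 77.1 CPM with TNF (0.72 ± 0.07).

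With TNF the highest estimates among the called members were those of Oas3, Ifi44, Oas2, Oas1a and the RNA sensor Ifih1. Oas3 read 0.269, 0.25 and 0.155 CPM in TGFb1 and 3.27, 2.28 and 1.86 CPM with TNF (3.40 ± 0.54, adjusted p = 4.54e-07), and 0.736, 0.828 and 0.575 CPM with IL1b (1.62 ± 0.57, adjusted p = 0.024). The IL1b call of Oas3 was lost in 4 of the 6 fits that left out a library and, with Rsad2, when TGFb1 + DMSO was the control. Ifih1 read 19.5, 17.9 and 15.5 CPM in TGFb1, 36.3, 36.0 and 34.0 with IL1b (1.0 ± 0.16) and 90.9, 67.6 and 66.1 with TNF (2.08 ± 0.16), 3 groups that did not overlap. Oasl1 read 16.1, 16.5 and 14.1 CPM, then 29, 27.1 and 25.2 with IL1b and 65.5, 41.1 and 50.02 with TNF. Oasl2 read 67.4, 58.5 and 43.0 CPM, then 110, 89.0 and 94.0 with IL1b and 176, 115 and 130 with TNF. Ifi44 (2.68 ± 0.28), Oas2 (2.24 ± 0.52) and Oas1a (2.16 ± 0.44) followed Oas3 in the size of the TNF response. With IL1b the largest were Gbp5, which promotes inflammasome assembly (1.80 ± 0.33), Ifi44 (1.64 ± 0.29), Oas3, Rsad2 (1.46 ± 0.32) and Irf7.

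Rsad2 read 12.2, 13.7 and 8.45 CPM in TGFb1, 32.6, 33.7 and 29.2 CPM with IL1b and 61.0, 40.6 and 37.7 CPM with TNF. Bst2 read 19.6, 20.6 and 14.8, then 37.4, 28 and 32.4, then 49.9, 31.1 and 30.2 CPM. Samd9l, an inhibitor of translation and growth, rose with TNF (0.76 ± 0.17) and was not called with IL1b (0.15 ± 0.17), at 35.6, 38.4 and 30.7, then 40.9, 35.5 and 40.4 with IL1b and 74.8, 47.6 and 55.4 CPM with TNF. Mx1 rose with IL1b, from 1.11, 1.61 and 0.412 to 3.79, 1.87 and 1.80 CPM (1.21 ± 0.39), and was not called with TNF (1.86, 1.28 and 1.18 CPM, 0.42 ± 0.41). Mx2, annotated as a polymorphic pseudogene, read 0.960, 1.82 and 1.19, then 3.75, 3.49 and 2.95 with IL1b and 4.17, 1.96 and 3.35 CPM with TNF and rose with each. The guanylate-binding proteins rose in 4 of 4 with each cytokine (17.2% of all genes with IL1b, 27.7% with TNF). Gbp2 read 25.7, 23.1 and 26.0 CPM with IL1b (1.30 ± 0.19) and 23.8, 16.1 and 16.6 CPM with TNF (0.90 ± 0.20). Gbp3 stood at 10.5, 9.67 and 5.67 CPM in TGFb1, 24.6, 17.2 and 20.8 with IL1b and 26.7, 13.4 and 18.7 with TNF.

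Of the immunity-related GTPases 0 of 3 were called with IL1b or with TNF in edgeR, and whether they differed from the other members was not tested. With IL1b all 3 estimates were above 0, with a median of 0.52, and 1 was higher at an unadjusted p under 0.05. With TNF the median was 0.18, and 0 passed that p. Irgm1 read 67.8, 68.1 and 56.6 CPM in TGFb1, 70.4, 63.3 and 67.2 with IL1b (0.06 ± 0.16) and 90.9, 63.1 and 64.1 with TNF (0.18 ± 0.16). Iigp1 read 10.9, 7.17 and 5.20, then 14.1, 13.1 and 12.3 with IL1b (0.75 ± 0.30, adjusted p = 0.0709) and 8.96, 5.76 and 7.30 CPM with TNF (-0.10 ± 0.32). Of the PARPs, 1 of 3 rose with IL1b (17.2% of all genes) and 3 of 3 with TNF (27.7%). Parp12 read 31.2, 30.8 and 27.4 CPM in TGFb1 and 51.8, 35.2 and 37.2 CPM with TNF (0.47 ± 0.13), and Parp9 27.5, 26.7 and 21.5 and 44.5, 30.0 and 33.7 CPM (0.51 ± 0.16). Lgals3bp read 144, 137 and 121 CPM in TGFb1, 168, 141 and 158 with IL1b and 220, 152 and 158 with TNF, called with TNF only (0.40 ± 0.14).

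For members shown so far in some groups alone, the other libraries were as follows. Trim25 read 20.6, 23 and 16.9 CPM and Ifit2 26.6, 26.7 and 22.6 CPM in TGFb1 + CHIR, the lowest libraries of either gene. Eif2ak2 read 39.4, 49.3 and 50.7 CPM in DMSO, 46.7, 49.6 and 44.9 in CHIR, 61.5, 56 and 46.4 in TGFb1, 73.3, 59.8 and 66.3 with IL1b and 86.7, 61.4 and 72.3 with TNF. Its TGFb1 and TNF libraries overlapped by 1 library. Ifih1 read 15.6, 22.6 and 20.9 CPM in DMSO, 13.9, 14.7 and 12.9 in CHIR, 24.1, 19.2 and 24.5 in TGFb1 + DMSO and 4.37, 5.63 and 3.06 in TGFb1 + CHIR. Samd9l read 19.5, 29.1 and 23.6 CPM in DMSO, 30.5, 35.7 and 32.8 in CHIR, 59.2, 44.6 and 49.1 in TGFb1 + DMSO and 10.7, 11.8 and 8.71 in TGFb1 + CHIR. The CHIR libraries of Samd9l lay above those of DMSO and the TGFb1 + CHIR libraries of both genes below every other library. Bst2 read 13.7, 25.5 and 23.4 CPM in DMSO, 10.3, 10.3 and 14.7 in CHIR, 26.3, 29.1 and 23.5 in TGFb1 + DMSO and 10.9, 13.4 and 9.52 in TGFb1 + CHIR, so that CHIR and TGFb1 + CHIR overlapped. Mx2 read 0.442, 1.18 and 0.568 CPM in DMSO, 0.521, 0.608 and 0.487 in CHIR, 2.95, 0.886 and 1.35 in TGFb1 + DMSO and 0.334, 0.198 and 0.0509 in TGFb1 + CHIR, and Mx1 0.068, 0.0336 and 0, 0.186, 0.342 and 0.292, 1.16, 1.02 and 1.76, and 0, 0.0988 and 0 CPM in the same groups. The TGFb1 + CHIR libraries of Mx2 lay below those of the other 3 groups, and those of Mx1 overlapped DMSO.

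Parp12 read 21.7, 25.4 and 25.2 CPM in DMSO, 17, 20.5 and 18 in CHIR, 36.4, 30.4 and 36.5 in TGFb1 + DMSO, 9.41, 7.85 and 6.42 in TGFb1 + CHIR and 39.4, 32.2 and 33.9 with IL1b. Parp9 read 20.3, 26.4 and 20.3 CPM in DMSO, 18, 18 and 20.8 in CHIR, 35.7, 24.7 and 30.2 in TGFb1 + DMSO, 11.6, 13.5 and 9.57 in TGFb1 + CHIR and 31.9, 30.1 and 34 with IL1b. For both PARPs the TGFb1 + CHIR libraries were the lowest of all 21. Lgals3bp read 128, 157 and 164 CPM in DMSO, 126, 134 and 131 in CHIR, 173, 143 and 135 in TGFb1 + DMSO and 77.3, 83.8 and 82.2 in TGFb1 + CHIR. Znfx1 read 58.7, 53.6 and 55.5 CPM in TGFb1, 69.9, 60.05 and 64.1 in TGFb1 + DMSO, 58, 52.1 and 55.6 in TGFb1 + CHIR, 65.9, 59 and 55.5 with IL1b and 61.3, 48.5 and 46.4 with TNF. The TGFb1 + CHIR libraries of Lgals3bp were also the lowest of all 21, whereas the lowest of Znfx1 were 2 of the 3 TNF libraries.

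**Figure D5:**
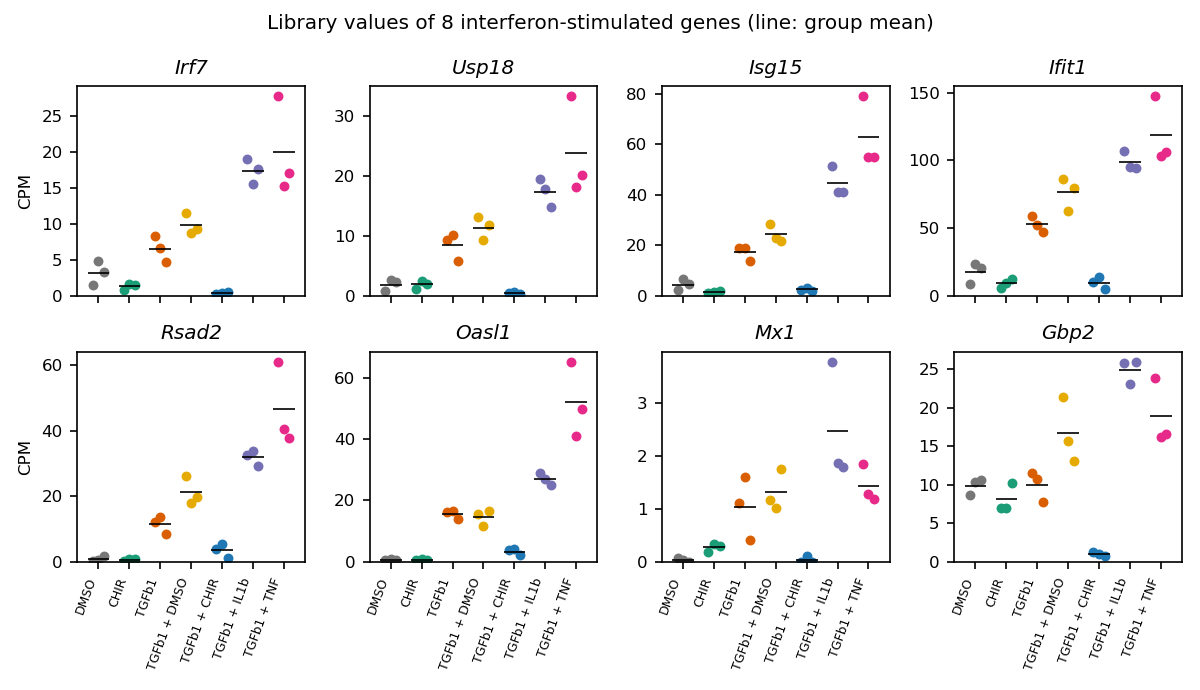
CPM of Irf7, Usp18, Isg15, Ifit1, Rsad2, Oasl1, Mx1 and Gbp2 (vertical axes) in each of the 21 libraries by group (horizontal axes); points are libraries and lines are group means. Each gene is lower in every TGFb1 + CHIR library than in every TGFb1 + DMSO library, and each except Mx1 is higher in every TGFb1 + TNF library than in every TGFb1 library.

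The cytokines were also compared with each other. TGFb1 + IL1b was higher than TGFb1 + TNF for 3 of 47 members (24.7% of all genes tested) and lower for 10 (22.8%), with a median of -0.18 against 0.01 over all genes. The higher members were Iigp1 (0.84 ± 0.30, adjusted p = 0.031), Isg20 (17.1, 19.1 and 16.8 CPM with IL1b, 11.5, 12.1 and 12.1 with TNF, 0.57 ± 0.11, adjusted p = 9.91e-06) and Znfx1 (0.21 ± 0.07, adjusted p = 0.0191). The lower members were led by Oas3 (-1.79 ± 0.47, adjusted p = 0.00129), Oas2 (-1.25 ± 0.47, adjusted p = 0.038), Ifih1 (-1.08 ± 0.15, adjusted p = 7.85e-06), Ifi44 (-1.04 ± 0.25, adjusted p = 0.00272) and Parp14 (-1.0 ± 0.22, adjusted p = 0.00137). Of the OAS family 4 of 5 were lower with IL1b than with TNF, and of the guanylate-binding proteins 0 of 4 were called either way in edgeR, with Gbp2 alone past an unadjusted p of 0.05 (0.40 ± 0.18). Single libraries moved these counts: 1 member was higher without IL1b replicate 1, TNF replicate 2 or TNF replicate 3 and 5 without TNF replicate 1, and 6 were lower without IL1b replicate 3 or TNF replicate 1. With limma voom, and with only these groups in the fit, 5 were higher. Of all genes, 47.6% were called in either direction in the main fit and 41.1% to 43.0% when a library was left out. The share was 48.4% with limma voom and 53.9% with only these groups. Iigp1 was not called in 5 of the 6 fits that left out a library, Znfx1 in 3 and Oas2 in 3.

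The rest of the pathway was read from lists of its parts. Of all genes, the shares called were 20.8% higher and 22.5% lower for CHIR on TGFb1, 30.7% and 31.3% for TGFb1 + DMSO against DMSO, 17.2% and 17.4% for IL1b, 27.7% and 28.8% for TNF and 22.1% and 22.7% for CHIR alone. In lists of 5 or 10 genes, counts of a few in either direction lie near these shares. Some counts lie above them, such as 4 of 5 receptor genes higher with IL1b. Another is 7 of 10 kinases, STATs and IRFs lower with TGFb1 + DMSO against DMSO. All are given as descriptions. No interferon ligand was expressed at a testable level: 0 of 21 passed the filter, 17 had 0 counts in all 21 libraries, and over all libraries Ifnz had 32 counts, Ifnb1 18, Ifne 7 and Ifng 2. Of the Ifnb1 counts 8 fell in TGFb1 + IL1b, 4 in TGFb1 + TNF, 3 in TGFb1 + DMSO and 0 in TGFb1 + CHIR. A sum of 3 counts over a group is the floor used here. Of the 5 receptor genes tested, 0 rose and 2 fell with CHIR on TGFb1, Ifngr1 (-0.34 ± 0.05) and Ifngr2 (-0.46 ± 0.05). Ifnar1 and Ifnar2 were not called there, at means of 74.2 and 31.7 CPM in TGFb1 + CHIR against 80.6 and 31.3 CPM (-0.12 ± 0.06 and 0.02 ± 0.07). With TGFb1 + DMSO against DMSO 1 receptor gene rose and 2 fell, with IL1b 4 rose and 1 fell, led by Ifnar2 (0.86 ± 0.07), and with TNF 3 rose and 0 fell.

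Among 10 kinases, STATs and IRFs, 1 rose and 6 fell with CHIR on TGFb1. Irf1, a factor induced by interferon gamma, averaged 28.6 CPM in TGFb1 + DMSO and 16.2 CPM in TGFb1 + CHIR (-0.82 ± 0.08). Irf5 fell by 1.07 ± 0.18 on the log2 scale, and Irf8 had 0 counts in TGFb1 + CHIR against 9, at least 2.43-fold lower. With TGFb1 + DMSO against DMSO 2 of the 10 rose and 7 fell: the kinase Jak2 rose (0.22 ± 0.04) while Jak1 (-0.90 ± 0.04), Tyk2 (-0.78 ± 0.09), Irf2 (-1.50 ± 0.07) and Irf1 (-0.54 ± 0.07) fell. With IL1b 5 rose and 1 fell, with TNF 5 rose and 1 fell, and Jak2 rose in both (0.65 ± 0.04 and 0.80 ± 0.04). CHIR alone raised 4 and lowered 3, with Jak2 among the former (0.49 ± 0.04).

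Of the 10 inhibitors 3 rose and 2 fell with CHIR on TGFb1. Socs1 and Socs3, which block the kinases of cytokine receptors, both rose: Socs1 averaged 1.23 CPM in TGFb1 + DMSO and 3.67 in TGFb1 + CHIR (1.56 ± 0.28, adjusted p = 7.84e-06), and Socs3 34.1 and 62.4 CPM (0.87 ± 0.07). The largest change of the list went the other way: Ptpn6, which encodes the phosphatase SHP-1, averaged 0.943 CPM in TGFb1 + DMSO and 0.125 in TGFb1 + CHIR (-2.92 ± 0.58), from 78 and 8 counts. Ptpn1, another phosphatase, also fell (-0.23 ± 0.05). With TNF Socs1 and Socs3 fell, Socs1 to 0.409 CPM from 1.17 (-1.52 ± 0.36) and Socs3 to 12.7 from 34.7 CPM (-1.45 ± 0.08), among 6 inhibitors lower and 1 higher. With IL1b 1 rose and 5 fell, and Socs1 was not called (0.42 ± 0.30). Socs3 also fell with TGFb1 + DMSO (-2.48 ± 0.07) and with CHIR alone (-2.89 ± 0.07) against DMSO, where it averaged 190 CPM. The part of the inhibitors in the levels of the members was not tested.

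Of 10 other genes of nucleic acid sensing, 2 rose and 6 fell with CHIR on TGFb1, with Tlr3, a receptor for double-stranded RNA (-2.32 ± 0.31), Ddx58, which encodes the RNA sensor RIG-I (-1.61 ± 0.15), and Cgas, the DNA sensor (-0.64 ± 0.11), lower and the adaptor Ticam1 higher (0.42 ± 0.08). TGFb1 + DMSO raised 4 and lowered 4, IL1b raised 4 and lowered 2, and TNF raised 4 and lowered 2, with Ddx58 higher in all 3. A list of 45 further interferon-stimulated genes, 42 of them tested, was counted in the same way. With CHIR on TGFb1, 2 rose and 36 fell, with a median of -1.98. Ifi27l2a had 0 against 52 counts, at least 14.1-fold lower, and Psmb9, an immunoproteasome subunit, 0 against 23, at least 6.22-fold lower. Ifi203 (-4.15 ± 0.54) and Ddx60 (-3.75 ± 0.65) fell as well. With IL1b 24 rose and 1 fell and with TNF 27 rose and 0 fell. TGFb1 + DMSO raised 15 and lowered 12 against DMSO, near the shares of all genes (30.7% and 31.3%). Cxcl10, a chemokine for T cells, averaged 3.44 CPM in DMSO, 1.93 in CHIR, 31.4 in TGFb1, 39.9 in TGFb1 + DMSO, 5.81 in TGFb1 + CHIR, 104 in TGFb1 + IL1b and 167 in TGFb1 + TNF. It rose with TGFb1 + DMSO against DMSO (3.53 ± 0.26), with IL1b (1.71 ± 0.19) and with TNF (2.40 ± 0.19) and fell with CHIR on TGFb1 (-2.77 ± 0.24). The chemokine Ccl5 rose with IL1b (2.09 ± 0.21) and TNF (2.92 ± 0.21).

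The members lie on 16 chromosomes, and 18 of the 47 have another member within 100 kb. These are Ifit1, Ifit2 and Ifit3 on chromosome 19, Oas2 with Oas3 and Oasl1 with Oasl2 on chromosome 5, Rsad2 with Cmpk2 on chromosome 12, Mx1 with Mx2 and Parp9, Parp14 and Dtx3l on chromosome 16, and Gbp2, Gbp3, Gbp5 and Gbp7 on chromosome 3. Neighbours did not always move alike: against DMSO, TGFb1 + DMSO raised Ifit1 and lowered Ifit2, as given above, and raised Parp9 (0.43 ± 0.16) while Dtx3l, which overlaps it on the opposite strand, was not called (0.02 ± 0.18). The 17 members with the ISRE core had a median log2 fold change of -2.96 with CHIR on TGFb1, from -4.04 to -1.11, and the 20 without it one of -2.125, from -6.30 to 0.17. With TNF the medians were 1.16 and 0.75, and with TGFb1 + DMSO against DMSO 0.76 and 0.52. The order turned for TGFb1 against DMSO, at 0.14 with the core and 0.27 without it, and for TGFb1 + CHIR against CHIR, at -0.69 and -0.99. The ranges overlapped in each comparison, and these medians are descriptions without a test.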

How the data were processed

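Bulk RNA-seq libraries of 21 samples in 7 groups of 3 were read with a stranded total RNA kit, per the labels' protocols. The deposited values were raw read counts per Ensembl gene ID for 52636 genes, from the authors' counting. The submitters' processing notes name the builds GRCh38 and GRCm38 without their roles. The aligner, the counter, its strand setting and its treatment of multi-mapping reads were not stated in the labels. All 21 single-library tables equalled their column of the joint table, and 0 columns were left unused. Of the gene IDs, 52489 were found in GENCODE M21 and 233 had no symbol.

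Counts were fitted with edgeR 4.0.16 (R 4.3.3), with TMM factors, filterByExpr (16197 genes kept), all 21 libraries in 1 model with a coefficient for each group, and quasi-likelihood tests with robust dispersions. P-values were adjusted by Benjamini-Hochberg over all 16197 genes, with a threshold of 0.05. The SE is the size of the log2 fold change divided by the square root of F. The common biological coefficient of variation was 0.0581. Library totals ran from 19796379 to 29276382 counts. Genes with 0 counts in a group were given as bounds at a floor of 3 counts over the group, and those with 1 to 3 counts as ratios with 95% exact counting intervals. The script was tested on simulated data. Groups came from the labels, which carry no replicate number: libraries were numbered in record order, so numbers do not pair samples.

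Members and pathway lists were chosen with earlier results of these data known. Values in all libraries were given for the 2 most abundant members of each role and 8 further members (Irf7, Usp18, Isg15, Ifit1, Rsad2, Oasl1, Mx1 and Gbp2). Each comparison named 5 called members at either end of the fold changes, and each pathway list up to 4 genes. Library values of Isg20, Xaf1, Sp100, Trim30a, Oas3 and Ifi44 were added after their values were seen. The comparison of TGFb1 + CHIR with CHIR was added after seeing the data. Mb21d1 was matched under its current symbol Cgas. The values of 1 pathway gene are not reported here. Alternatives were DESeq2 1.42.0, limma 3.58.1 voom, RLE factors, no filter, a filter of 1 CPM in 3 libraries, mitochondrial and ribosomal RNA genes left out, only the groups compared, the other TGFb1 group as control, and leaving out each replicate. Promoters were windows of 300 bases from RefSeq (GRCm38.p6).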

Additional observations from a re-analysis of the deposited data

Results flagged for a closer look

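The effect of CHIR differed between cells with and without TGFb1 by the test of the interaction itself. The difference was negative for 39 of 47 members (20.3% of all genes) and positive for 1 (21% of all genes). On the log2 scale it was -8.01 for Mx1, an estimate that rests on groups with 2 and 3 counts, -5.54 for Ifi44, -4.57 for Usp18, -4.04 for Iigp1, -3.87 for Parp14 and 1.15 for Isg20.

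The effects of IL1b and TNF, both on the TGFb1 background, differed by the direct test between them, with 3 members higher and 10 lower with IL1b, against 24.7% of all genes higher and 22.8% lower, so neither count exceeded the share of all genes. The log2 differences were 0.84 for Iigp1, 0.57 for Isg20 and 0.21 for Znfx1 on the higher side. On the lower side they were -1.79 for Oas3, -1.25 for Oas2, -1.08 for Ifih1, -1.04 for Ifi44 and -1.0 for Parp14.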

How the results depend on the processing

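The 56 values of named genes were recomputed 787 times. Of these 748 kept their direction and their side of the threshold, 39 kept the direction and lost the call, and 0 reversed. Among the counts of members called, TGFb1 in place of TGFb1 + DMSO gave 18 higher (31.0% of all genes) and 5 lower (32.5%) against DMSO. With TGFb1 + DMSO as the control, IL1b gave 14 higher (19.6%), and TNF 26 higher (27.8%) and 1 lower (29.2%). With limma voom CHIR against DMSO gave 9 lower, IL1b against TNF 5 higher and TGFb1 + CHIR against CHIR 3 higher. Of all genes, 46.0%, 48.4% and 65.8% were called there in either direction. For TGFb1 + DMSO against TGFb1 the number higher was 8 with no filter, 19 with only the groups compared and 7 with DESeq2. The shares of all genes called in either direction were 3.5%, 6.09% and 2.28%. With only the groups compared, IL1b against TNF gave 5 higher, with 53.9% of all genes called in either direction. The cause was not tested. Leaving out each library in turn gave 7 to 19 lower for CHIR against DMSO, 1 to 3 higher for TGFb1 + DMSO against TGFb1, 0 to 1 lower for TNF against TGFb1, and 1 to 5 higher and 6 to 15 lower for IL1b against TNF. It gave 45 to 46 lower for TGFb1 + CHIR against TGFb1 + DMSO and 26 to 33 higher for TGFb1 + DMSO against DMSO. Against TGFb1 it gave 24 to 34 higher for IL1b and 35 to 41 higher for TNF. Of all genes, 38.7% to 40.7% were called in either direction in these fits for CHIR against DMSO. The share was 3.87% to 5.3% for TGFb1 + DMSO against TGFb1 and 41.1% to 43.0% for IL1b against TNF. For TGFb1 + CHIR against TGFb1 + DMSO it was 37.4% to 39.0%, and for TGFb1 + DMSO against DMSO 57.1% to 58.3%. No paired analysis was possible because the labels number no replicates, so the numbers pair nothing. Members with few counts, Oas3 (319 over 21 libraries), Oas1a (446) and Mx1 (537), limit the precision.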
